A study of Mus musculus with 9 samples.

Results

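The Cyp3a subfamily was followed in liver RNA of 9 male C57BL/6 mice, 3 in each of a control, a TAA and a recovery group. The mice were 8 weeks old at the start. Thioacetamide (TAA), a hepatotoxin that damages hepatocytes and leads to fibrosis, was given at 200 mg/kg by intraperitoneal injection every 3 days for 8 weeks to the TAA and recovery mice, while control mice received saline. Control and TAA livers were taken 72 h after the last injection. Recovery livers were taken after a further 8 weeks without injections, so these mice were 8 weeks older, and age-matched controls were not analysed here. The members were the 9 genes of the FPKM table with the symbols Cyp3a11, Cyp3a13, Cyp3a16, Cyp3a25, Cyp3a41a, Cyp3a41b, Cyp3a44, Cyp3a57 and Cyp3a59, out of 21873 genes listed. The family was chosen by the FPKM of its fetal-type and adult-type members in TAA livers, which were already known, so the values in both comparisons with the TAA group are a description and carry no p values.

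CYP3A enzymes are haem-containing monooxygenases of the endoplasmic reticulum that oxidise steroids, bile acids and a large share of drugs, using electrons from cytochrome P450 reductase. In rodents the subfamily is a set of tandem copies, some of which are used in adult liver and others mainly before puberty or in females. Cyp3a11 is the main adult mouse form and is induced through the pregnane X receptor (PXR, Nr1i2) and the constitutive androstane receptor (CAR, Nr1i3), and Cyp3a13 and Cyp3a25 are also adult liver forms. Cyp3a16 is known from fetal and neonatal liver, and Cyp3a41a, Cyp3a41b and Cyp3a44 from young mice and adult females. These 4 genes are called the early-life members here, while Cyp3a57 and Cyp3a59 were placed in neither class.

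All members but Cyp3a13, 8 genes, form a cluster on chromosome 5 (mm10, that is, GRCm38) between 145345279 and 146113287, a span of 768 kb that holds no other gene of the table. Every span matched the GENCODE M21 annotation, and the reference transcript of each member has 13 exons. The order in the cluster is Cyp3a57, Cyp3a16, Cyp3a41b, Cyp3a41a, Cyp3a44, Cyp3a11, Cyp3a25 and Cyp3a59, with the first and the last on the plus strand and the rest on the minus strand. The 4 early-life members are therefore adjacent, in a block from 145436309 to 145805874 (370 kb). Cyp3a13 lies apart, at 137892932 to 137921619 on the minus strand, 7424 kb from the cluster.

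The transcripts of the early-life members were 92.0% to 99.9% identical over aligned bases, and those of Cyp3a11 and the early-life members 91.6% to 94.5%. Their promoters showed another grouping. Over 250 bases before and 50 bases after the RefSeq start, the early-life members were 94.3% to 99.7% identical among themselves, whereas Cyp3a11 was 79.2% to 82.2% identical to them. Cyp3a25, Cyp3a57 and Cyp3a59 formed a second set, with transcripts 92.9% to 97.0% and promoters 90.9% to 96.3% identical. Cyp3a13 was 72.1% to 74.5% identical to the other transcripts. The RefSeq start of Cyp3a11 lies 110 bases inside the span of the table, so its window is shifted by that much against the annotated end of the gene.

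The promoters of 3 early-life members and of the 2 most abundant adult members are shown because these genes moved in opposite directions or by very different amounts in TAA livers. All are RefSeq sequences of GRCm38.p6, 5′ to 3′ on the minus strand, on which these genes lie. Capitals mark AGGTCA or AGTTCA, hexamers of the kind that nuclear receptors such as PXR and CAR bind, on either strand, and the letters TATAAA.
Cyp3a16, chr5:145469674-145469973: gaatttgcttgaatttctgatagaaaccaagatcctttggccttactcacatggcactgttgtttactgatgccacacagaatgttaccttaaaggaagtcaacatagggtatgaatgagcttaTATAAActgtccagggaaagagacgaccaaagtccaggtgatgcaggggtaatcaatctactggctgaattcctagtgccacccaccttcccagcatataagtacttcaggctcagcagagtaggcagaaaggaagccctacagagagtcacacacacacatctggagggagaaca
Cyp3a41a, chr5:145720087-145720386: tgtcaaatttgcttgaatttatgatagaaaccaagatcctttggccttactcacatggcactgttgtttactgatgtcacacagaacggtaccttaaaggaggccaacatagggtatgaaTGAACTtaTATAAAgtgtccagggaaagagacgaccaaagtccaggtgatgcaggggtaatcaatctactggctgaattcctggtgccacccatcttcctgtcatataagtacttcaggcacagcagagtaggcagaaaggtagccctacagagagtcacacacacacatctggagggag
Cyp3a44, chr5:145805825-145806124: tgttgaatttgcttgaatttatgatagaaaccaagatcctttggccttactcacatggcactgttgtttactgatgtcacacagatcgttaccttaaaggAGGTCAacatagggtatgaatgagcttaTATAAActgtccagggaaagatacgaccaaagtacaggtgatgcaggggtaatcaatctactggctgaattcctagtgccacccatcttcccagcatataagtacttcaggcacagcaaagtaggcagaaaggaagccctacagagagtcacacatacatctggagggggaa
Cyp3a11, chr5:145879805-145880104: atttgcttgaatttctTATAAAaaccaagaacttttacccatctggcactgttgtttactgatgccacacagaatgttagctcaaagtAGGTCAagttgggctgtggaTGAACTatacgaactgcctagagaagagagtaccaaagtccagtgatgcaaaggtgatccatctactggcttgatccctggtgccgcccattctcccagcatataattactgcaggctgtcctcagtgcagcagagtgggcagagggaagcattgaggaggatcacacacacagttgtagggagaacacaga
Cyp3a25, chr5:146009569-146009868: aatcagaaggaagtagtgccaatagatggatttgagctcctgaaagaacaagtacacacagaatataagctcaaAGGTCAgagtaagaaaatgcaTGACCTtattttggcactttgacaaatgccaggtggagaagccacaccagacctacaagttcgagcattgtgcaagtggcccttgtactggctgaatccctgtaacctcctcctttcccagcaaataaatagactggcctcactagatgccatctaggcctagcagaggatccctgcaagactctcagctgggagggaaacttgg

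Counted from the RefSeq start, the TATAAA letters began at -126 in Cyp3a16, at -122 in Cyp3a41a, Cyp3a41b and Cyp3a44, and at -234 in Cyp3a11. They were found in 5 of the 9 Cyp3a promoters and in 14.2% of 27025 promoters, counting either strand. An AGGTCA or AGTTCA hexamer was found in 7 of the 9, against 27.6% of all promoters, with none in Cyp3a16 and Cyp3a13. The promoters within each of the 2 sets above are near copies, so these counts are not of independent sequences and show no enrichment. Cyp3a25, Cyp3a57 and Cyp3a59 each held a pair of AGGTCA sites, which in Cyp3a25 began at -176 and -155. Cyp3a41a and Cyp3a41b held 1 AGTTCA site and Cyp3a44 held 1 AGGTCA site. No direct repeat of these hexamers spaced by 3 or 4 bases and no everted repeat spaced by 6 bases was found in the 9 windows. Such repeats were in 0.0111%, 0.0259% and 0.0111% of all promoters. A match of letters is a description and not a binding site, and the windows cover only the start of each gene.

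The deposited values were FPKM, the fragments of a gene per kilobase of its length and M fragments mapped. Each library was scaled by the median of its ratios to the other libraries, with factors of 0.827 to 0.878 for control, 1.29 to 1.38 for TAA and 0.893 to 0.907 for recovery mice. This lowered TAA values by 0.64 log2 units against controls. An estimated 27.0 to 40.7 M fragments lay behind each library. The hepatocyte origin of the tissue was seen in all libraries, as 10 hepatocyte markers summed to 45802 to 50176 scaled FPKM in control, 24702 to 32225 in TAA and 53739 to 56810 in recovery livers. In the TAA group 5 of these 10 were called lower and 0 higher, against 3 lower and 0 higher with FPKM as deposited, and 1 lower (Cyp2e1) and 3 higher (Ttr, Hpx and Fgb, named after their values were seen) under quantile normalization. In the same group 6 of 6 cholangiocyte markers and 6 of 7 hepatic stellate cell markers were called higher, and the stellate sum went from a mean of 37.9 scaled FPKM in control to 240.5 in TAA and 37.7 in recovery livers. Summed cholangiocyte markers went from 15.7 to 21.0 up to 295 to 443 scaled FPKM and were 27.9 to 38.4 in recovery. Macrophage markers had 2 of 6 called higher, and 5 of 6 as deposited. Lymphocyte markers had 1 of 6 called higher, 4 of 6 as deposited and 0 of 6 under quantile normalization, while liver endothelium markers summed to 51.1 to 93.3 in control and 54.1 to 72.8 in TAA livers. Of 6 enterocyte markers 4 could be tested, with 1 higher and 1 lower. Skeletal muscle markers summed to 33.4 in TAA mouse 3, against at most 0.0101 in any control or recovery library. The part of these shifts in the Cyp3a values was not tested, and in whole tissue fewer hepatocytes and less RNA per cell cannot be told apart.

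Of the 9 members, 8 had a mean FPKM of at least 0.1 and entered the fit over 14094 genes. A gene was called when the FDR was < 0.05 and the fold change at least 2. In TAA against control livers, 4 members were called higher and 3 lower. Over all genes, 17.0% were called higher and 8.02% lower, and groups without overlap were found for 32.6% with TAA higher and for 31.0% with TAA lower. The 4 members called higher were the early-life members, and the 3 called lower were Cyp3a25, Cyp3a13 and Cyp3a59, while Cyp3a11 was not called. Of the 4, Cyp3a16, Cyp3a41a and Cyp3a41b passed the minimum mean only through their TAA values. Their calls, like those of the other members, are a description here and not a test. The median log2 fold change was 6.32 over the early-life members and -1.30 over the adult members, against 0.02 over all tested genes. Cyp3a16 was listed at 0 in all control livers. With Cyp3a16 placed at the bound that 3 fragments allow, a ratio without the added 0.1, the early-life median was 6.75. The other early-life members stayed on the fitted scale, so this median mixes 2 scales and is only a description. The fold changes are on log2(scaled FPKM + 0.1), which understates the change of genes near 0.

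**Figure D1:**
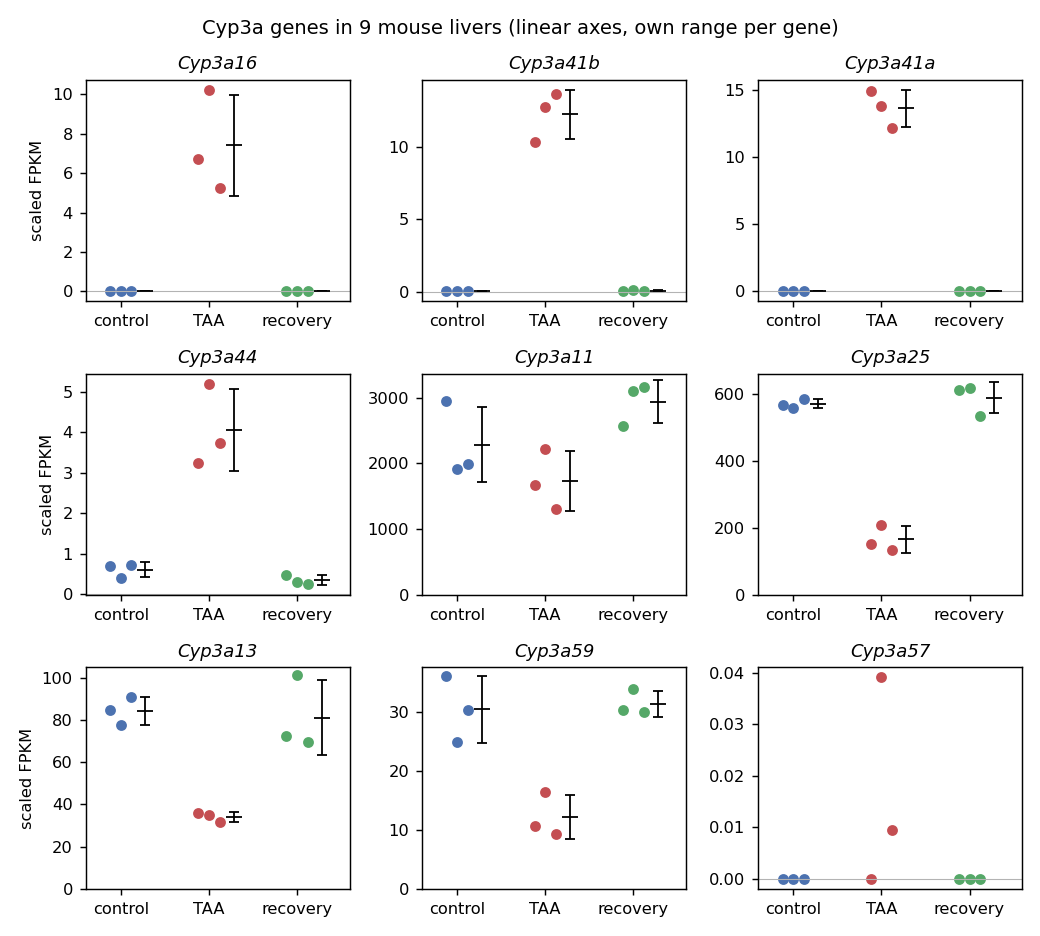
Scaled FPKM (linear vertical axes, a separate range for each gene) of the 9 Cyp3a genes in the control, TAA and recovery groups. Each point is 1 mouse, and black bars show the mean and SD of 3 mice, except for Cyp3a57. Cyp3a16, Cyp3a41b, Cyp3a41a and Cyp3a44 were high in TAA mice alone, Cyp3a25, Cyp3a13 and Cyp3a59 were lowest in TAA mice, and the control and TAA points of Cyp3a11 overlapped.

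Cyp3a16, the fetal and neonatal form (ENSMUSG00000038656, chromosome 5, 145436309 to 145469723), was listed at 0 in all 3 control and all 3 recovery livers. In the TAA livers it was at 6.74, 10.2 and 5.27 scaled FPKM, which corresponds to 485 to 910 fragments per mouse. It was thus detected in every TAA mouse and in no other mouse. A total of 3 fragments over the 3 control livers would have given 0.0213 scaled FPKM, and the TAA mean of 7.41 ± 2.55 (SD, n = 3) was at least 349-fold higher than that. Against the recovery livers the same floor gave at least 447-fold. Floors and intervals from fragment numbers cover counting error only. On the fitted scale the TAA group was higher than control by 6.18 ± 0.25 (SE), a value set by the added 0.1.

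Cyp3a41a (ENSMUSG00000075551, 145694049 to 145720136) was at 0, 0.0158 and 0 scaled FPKM in control, 14.9, 13.8 and 12.1 in TAA, and 0.0195, 0.0423 and 0.0198 in recovery livers. The single control value came from 1 fragment. Cyp3a41b (ENSMUSG00000075552, 145558664 to 145584730) was at 0.0431, 0.0238 and 0.0503 in control, 10.4, 12.8 and 13.7 in TAA, and 0.0424, 0.0758 and 0.0725 in recovery livers. For both, the TAA mice stood apart from the other 6 mice with no overlap. The log2 fold change of TAA against control was 7.02 ± 0.16 (SE) for Cyp3a41a and 6.47 ± 0.17 for Cyp3a41b. From the estimated fragments, the ratio of TAA to control was 344 for Cyp3a41b (3971 against 6, exact 95% interval 158 to 939) and 2280 for Cyp3a41a (4391 against 1, interval 410 to 90300). Against recovery it was 189 for Cyp3a41b (interval 113 to 346) and 585 for Cyp3a41a (interval 251 to 1800). Some of these fragment estimates fell between whole numbers and were rounded, which the intervals do not cover. Both copies have transcripts 99.9% identical, and 82.9% of the 150-base windows of Cyp3a41a also occur in Cyp3a41b, so the split of reads between them is uncertain. Their total is uncertain too, since how reads that fit both copies were counted is not given. No window of that length was shared between any of Cyp3a16, Cyp3a44, Cyp3a11 and Cyp3a13 and another member.

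Cyp3a44 (ENSMUSG00000054417, 145773983 to 145805874), a form known from female liver, was the early-life member with the highest level outside the TAA group. It had 23 to 41 estimated fragments per control mouse and 17 to 29 per recovery mouse. Cyp3a41b was also listed above 0 in every mouse, but at 1 to 3 fragments per control mouse and 3 to 6 per recovery mouse. Cyp3a44 was at 0.691, 0.390 and 0.722 scaled FPKM in control, 3.24, 5.20 and 3.72 in TAA and 0.476, 0.309 and 0.242 in recovery livers. The lowest TAA mouse was above the highest mouse of the other groups. The TAA mean of 4.06 ± 1.02 (SD, n = 3) was 675% of the control mean of 0.601 ± 0.183, with a log2 fold change of 2.58 ± 0.26 (SE). In the control group Cyp3a44 made up 92.8% ± 1.78 (SD, n = 3) of the summed FPKM of the early-life members. In the TAA group it made up 10.8% ± 1.59, while Cyp3a41a made up 36.7% ± 4.93, Cyp3a41b 33.0% ± 5.45 and Cyp3a16 19.5% ± 4.64. The composition of the early-life set in TAA livers was therefore unlike that of the small amount present in control livers. The percentages themselves depend on the uncertain total of Cyp3a41a and Cyp3a41b.

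Cyp3a11, the main adult form (ENSMUSG00000056035, 145854426 to 145879964), was at 2953, 1921 and 1993 scaled FPKM in control, 1666, 2221 and 1314 in TAA and 2564, 3100 and 3158 in recovery livers. Control and TAA mice overlapped, and every recovery mouse was above every TAA mouse in scaled FPKM. As deposited, TAA mouse 2 (2933) was above all recovery mice (2306, 2769 and 2862). The difference of TAA from control was -0.41 ± 0.25 (SE) on the log2 scale, and its direction depended on the scaling. With FPKM as deposited the difference was 0.23, and with quantile normalization 1.03, at which Cyp3a11 was called higher. Within the libraries, Cyp3a11 ranked 17, 33 and 32 among all genes by FPKM in control mice, 10, 4 and 11 in TAA mice and 18, 15 and 14 in recovery mice. It was thus among the most abundant transcripts of every liver.

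Cyp3a25, another adult form (ENSMUSG00000029630, 145977194 to 146009618), was at 567, 558 and 585 scaled FPKM in control, 153, 210 and 134 in TAA and 611, 618 and 533 in recovery livers. The TAA mean was 29.1% of the control mean, with a log2 fold change of -1.81 ± 0.16 (SE). Its control mice lay within a coefficient of variation of 2.38%, the smallest of the members measured there, while in TAA mice it was 23.7%. Under quantile normalization the fold change was -0.66 and Cyp3a25 was not called.

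Cyp3a13, the member outside the cluster (ENSMUSG00000029727), was at 84.7, 77.6 and 90.8 scaled FPKM in control, 35.8, 35.1 and 31.6 in TAA and 72.5, 101 and 69.5 in recovery livers. The TAA mice did not overlap with either group, and the log2 fold change against control was -1.30 ± 0.09 (SE). Cyp3a59 (ENSMUSG00000061292, 146079257 to 146113287), the closest relative of Cyp3a25, was at 36.1, 24.8 and 30.2 in control, 10.7, 16.3 and 9.33 in TAA and 30.2, 33.9 and 29.9 in recovery livers. Its log2 fold change was -1.35 ± 0.22 (SE), again with no overlap in scaled FPKM between TAA mice and the others. With FPKM as deposited the differences were -0.66 for Cyp3a13 and -0.71 for Cyp3a59, in the same direction but under the fold threshold. As deposited, Cyp3a59 also overlapped, with TAA mouse 2 (21.6) above control mouse 2 (21.2).

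Cyp3a57 (ENSMUSG00000070419, 145345279 to 145390926), the first gene of the cluster, did not reach the minimum mean. It was listed at 0 in all control and recovery livers and in TAA mouse 1, and at 0.0391 and 0.00950 scaled FPKM in TAA mice 2 and 3. These values correspond to 4 fragments and 1 fragment, a level at which no difference was detectable. Although its transcript was 92.9% identical to that of Cyp3a25 and 93.4% to that of Cyp3a59, it was not measured in the control livers in which both of those were.

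**Figure D2:**
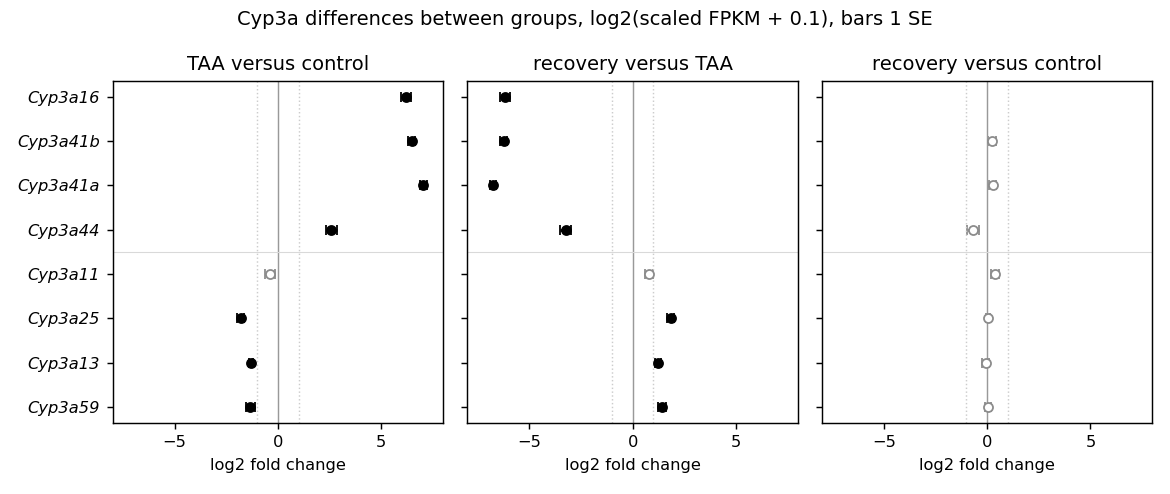
Log2 fold changes of the 8 tested Cyp3a genes in 3 comparisons, on log2(scaled FPKM + 0.1). Points show the estimate and bars 1 SE, filled points were called (FDR < 0.05 and at least 2-fold, dotted lines), and Cyp3a16 is not drawn for recovery against control, where it was at 0 in both groups. The early-life members lay between 2.58 and 7.02 in TAA against control and Cyp3a25, Cyp3a13 and Cyp3a59 between -1.81 and -1.30, while the direction of Cyp3a11 (-0.41) changed with the scaling.

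The order of levels in the family changed with TAA. In control livers it was Cyp3a11, Cyp3a25, Cyp3a13, Cyp3a59 and Cyp3a44, followed by Cyp3a41b and Cyp3a41a near 0, and none of the first 5 overlapped with its neighbour. In TAA livers Cyp3a11, Cyp3a25 and Cyp3a13 kept the first 3 places, but Cyp3a41a (13.6 ± 1.38 scaled FPKM, SD, n = 3), Cyp3a41b (12.3 ± 1.71) and Cyp3a59 (12.1 ± 3.72) overlapped with each other. Cyp3a16 also overlapped with Cyp3a59 there, and Cyp3a44 was below it. In recovery livers the order of the means was that of the control group.

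Shares of the summed Cyp3a FPKM within a library do not depend on the scaling between libraries. The early-life members together held 0.0201%, 0.0167% and 0.0286% of the sum in control mice, 1.85%, 1.66% and 2.28% in TAA mice and 0.0164%, 0.0111% and 0.00881% in recovery mice. Even in TAA livers they were thus a small part of the family by the listed FPKM. If reads that fit both Cyp3a41a and Cyp3a41b were left out, this share is too low, which was not tested. Cyp3a11 held 76.4% ± 4.04 (SD, n = 3) in control, 87.3% ± 0.938 in TAA and 80.7% ± 2.55 in recovery livers. Cyp3a25 held 19.6% ± 3.51, 8.39% ± 0.385 and 16.2% ± 2.29, with no overlap between the TAA mice and the others. Cyp3a13 held 2.90%, 1.78% and 2.23%, and Cyp3a59 1.02%, 0.607% and 0.863%.

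The adult members did not move by the same amount. The log2 ratio of Cyp3a25 to Cyp3a11 within a library was -2.38, -1.78 and -1.77 in control, -3.44, -3.40 and -3.29 in TAA and -2.07, -2.33 and -2.57 in recovery mice. Cyp3a25 was thus lower against Cyp3a11 in each TAA mouse than in any other mouse. The ratio of Cyp3a59 to Cyp3a11 showed the same order, with means of -6.22, -7.17 and -6.55. The ratio of Cyp3a13 to Cyp3a11 had means of -4.74, -5.63 and -5.19, and its recovery mice (-5.51 to -4.93) overlapped with the TAA mice (-5.98 to -5.38). The summed scaled FPKM of the family was 2974 ± 581 (SD, n = 3) in control, 1983 ± 505 in TAA and 3641 ± 315 in recovery livers, and as deposited it was 2530, 2627 and 3275.

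**Figure D3:**
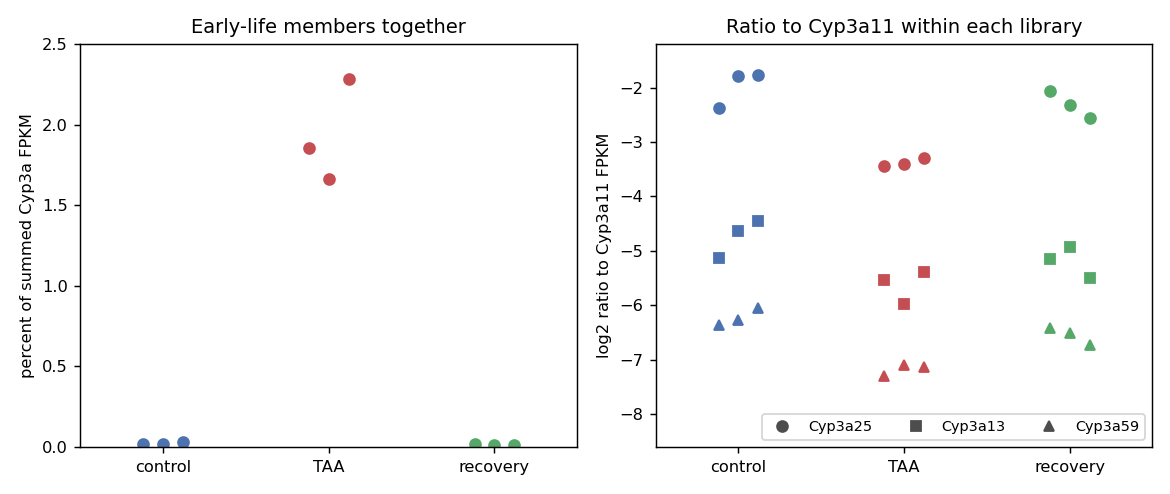
Left, the percent of the summed Cyp3a FPKM held by Cyp3a16, Cyp3a41a, Cyp3a41b and Cyp3a44 together, and right, log2 ratios of Cyp3a25, Cyp3a13 and Cyp3a59 to Cyp3a11, each point 1 mouse of the control, TAA or recovery group. The early-life share was 1.66% to 2.28% in TAA mice and at most 0.0286% elsewhere, and the ratios of Cyp3a25 and Cyp3a59 were lowest in the TAA mice.

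Along the cluster the members called higher and lower in TAA livers were not intermixed. The 4 adjacent early-life members were higher by 6.18, 6.47, 7.02 and 2.58 on the log2 scale, in the order of the chromosome. The next gene, Cyp3a11, was at -0.41, was not called and had no settled direction across the scalings, and Cyp3a25 and Cyp3a59 beyond it were at -1.81 and -1.35. On the other side of the block Cyp3a57 was near 0 in all groups. Cyp3a44, which was called, and Cyp3a11, which was not, are direct neighbours whose transcripts are 93.5% and whose promoters are 79.2% identical.

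**Figure D4:**
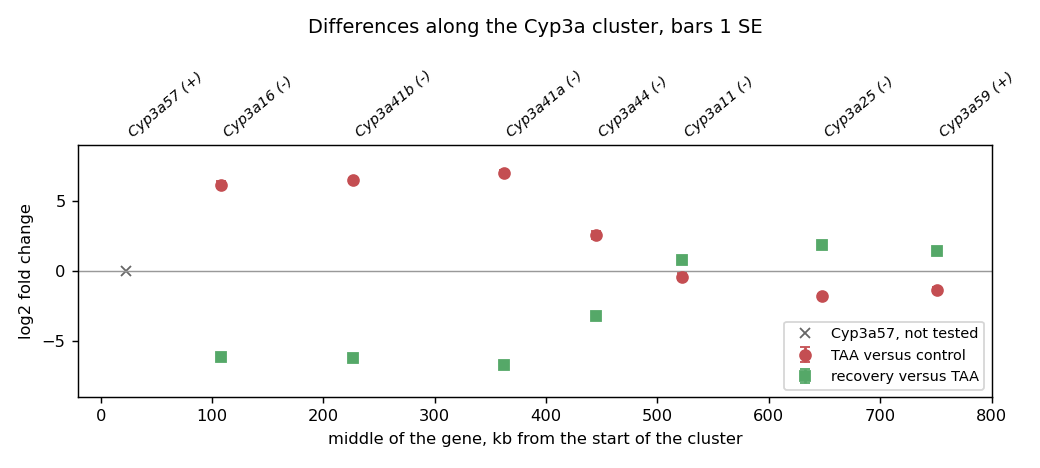
Log2 fold changes (vertical axis, bars 1 SE) of the Cyp3a genes in TAA against control and recovery against TAA by the position of the middle of each gene, in kb from the start of the cluster on chromosome 5, with the strand in parentheses. The 4 adjacent early-life members were higher in TAA livers (2.58 to 7.02) and Cyp3a25 and Cyp3a59 were lower (-1.81 and -1.35), while Cyp3a11, next to the block, was at -0.41, was not called and turned to 0.23 and 1.03 under the other scalings.

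The order of the mice within each group was also counted over the members. Control mouse 2 had the lowest scaled value for 6 of 7 members (5 of 7 with FPKM as deposited). Recovery mouse 2 had the highest for 5 of 7, among them Cyp3a41a and Cyp3a41b at only 3 and 6 estimated fragments. No share over all genes is given beside the counts of this paragraph, so they do not single out the family. TAA mouse 2 had the highest scaled value for 5 of the 8 tested members, and TAA mouse 3 had the lowest for 6 of the 8. The 1 member that was highest in TAA mouse 3 was Cyp3a41b. TAA mouse 3 was also the library with skeletal muscle transcripts, and without it the log2 fold changes of TAA against control were 6.39 for Cyp3a16, 7.10 for Cyp3a41a, 6.39 for Cyp3a41b, 2.62 for Cyp3a44, -1.67 for Cyp3a25, -1.24 for Cyp3a13, -1.18 for Cyp3a59 and -0.22 for Cyp3a11.

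The recovery against TAA comparison shares its TAA livers with the first comparison. In it 3 members were called higher and 4 lower, where 7.12% of all genes were called higher and 14.3% lower. The members called lower were the early-life members, at -6.18 ± 0.25 (SE) for Cyp3a16, -6.75 ± 0.16 for Cyp3a41a, -6.24 ± 0.17 for Cyp3a41b and -3.24 ± 0.25 for Cyp3a44. The members called higher were Cyp3a25 at 1.85 ± 0.17, Cyp3a59 at 1.40 ± 0.19 and Cyp3a13 at 1.23 ± 0.15. Cyp3a11 was at 0.79 ± 0.21 and was not called, although its groups did not overlap in scaled FPKM. They did overlap as deposited. Groups that did not overlap were found for 29.4% of all genes with recovery higher and for 31.0% with recovery lower. Cyp3a11 was at 0.23 with FPKM as deposited and at -0.51 under quantile normalization.

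The recovery and control groups were compared to ask how the levels after recovery compared with those of the control mice. The members were chosen with earlier results of these data known, so the p values below are not an independent test. Cyp3a16, Cyp3a41a and Cyp3a41b were in the fit through their TAA values and lay near 0 in both of these groups, so no test is given for these 3. Of the other 5 members, limma called 0, and 0 had an unadjusted p under 0.05, while 0.582% of all genes were called higher and 0.412% lower. Cyp3a11 was higher by 0.38 ± 0.21 on the log2 scale (SE, limma adjusted p = 0.325), with a recovery mean of 128% of control and overlapping groups. Cyp3a25 differed by 0.04 ± 0.09 (limma adjusted p = 0.835), Cyp3a13 by -0.07 ± 0.15 (limma adjusted p = 0.812) and Cyp3a59 by 0.06 ± 0.14 (limma adjusted p = 0.843). Their recovery means were 103%, 96.2% and 103% of control. These 3 differences were smaller than their standard errors. Cyp3a44 was at -0.66 ± 0.29 (limma adjusted p = 0.236), with a recovery mean of 56.9% of control, and its groups overlapped. The recovery mice were all above the control mice for Cyp3a41a, as were those of 14.6% of all genes, but at 1 to 3 estimated fragments per recovery mouse a difference was not detectable at this depth. Cyp3a41b overlapped between the groups, and Cyp3a16 was listed at 0 in both.

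The genes outside the family whose centred profile over the 9 libraries lay closest to that of each member were found by the root mean square (RMS) log2 difference. For Cyp3a16 these were Cyp1a1 (0.34), Cyp2a4 (0.35) and Afp (0.38), and for Cyp3a41a they were Cyp2a4 (0.36), Akr1c18 (0.37) and Sprr1a (0.48). For Cyp3a41b they were Cyp2a4 (0.38), Slc7a11 (0.38) and Sprr1a (0.42). Cyp2a4, a P450 of female liver, was thus near all 3 on log2(scaled FPKM + 0.1), at 1.55 scaled FPKM in control, 157 in TAA and 1.63 in recovery livers. These 3 members lay near 0 outside TAA livers, so which genes lay nearest to them depends on the added 0.1. Across other settings the log2 difference of Cyp3a16 between TAA and control ran from 3.03 to 9.48. Cyp3a44 was apart from the other early-life members, with RMS differences of at least 1.59 to them, and its nearest genes were Mms22l (0.24), Tcf19 (0.32) and Cenph (0.33). For Cyp3a25 they were Cyp2d26 (0.14), Dipk1a (0.15) and Gpat4 (0.16), for Cyp3a59 Ivd (0.20), Rida (0.21) and Gdap1l1 (0.21), and for Cyp3a13 Ss18l2 (0.12), Immp2l (0.12) and Fign (0.12). Cyp3a11 had group means within 1 log2 unit and was not entered.

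The regulators of the family were considered next. Of 19 tested xenobiotic receptors and hepatic transcription factors, 8 fell and 0 rose in TAA against control livers, and their median was -0.73 on the log2 scale. With FPKM as deposited 1 of them, Nr1i3, was called lower, and under quantile normalization 3, which were Nr1i3, Nr0b2 and Ppargc1a. The scaling itself lowered TAA values by 0.64 log2 units against controls, close to the size of the list median. Under another scaling 7 of the 19 changed direction, and of these 7, 0 were called on the scaled values. Nr1i3, which encodes CAR, was at 76.5, 76.1 and 73.5 scaled FPKM in control, 11.1, 10.4 and 12.8 in TAA and 54.5, 40.8 and 46.0 in recovery livers. It fell by 2.72 ± 0.10 on the log2 scale (SE, limma adjusted p = 2.75e-06) and rose by 2.03 ± 0.13 in recovery against TAA (limma adjusted p = 2.28e-05). In recovery it was at -0.69 ± 0.11 against control (limma adjusted p = 0.0349), under the fold threshold. Nr1i2, which encodes PXR, was at 33.0, 31.4 and 32.9 in control, 21.3, 21.6 and 18.7 in TAA and 27.5, 23.9 and 23.1 in recovery livers, and its difference of -0.66 ± 0.09 (limma adjusted p = 0.000576) did not reach 2-fold. This difference of Nr1i2 depended on the scaling, as it was -0.02 with FPKM as deposited and -0.30 under quantile normalization. Nr0b2, the corepressor SHP, fell by 1.56 ± 0.12 and rose by 1.68 ± 0.23 in recovery, and Ppara, Cebpa, Rxra and Ppargc1a fell by 1.48, 1.48, 1.25 and 1.22 in TAA livers. In recovery against TAA livers 4 of the 19 rose and 0 fell, and limma called 0 between recovery and control, where 11 of the 19 had an unadjusted p under 0.05. The share of all genes under that limit is not given, so such counts, here and for the lists below, do not single out a list.

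Genes that PXR and CAR are known to induce did not share 1 direction. Of 16 tested outside the Cyp3a family, 7 rose and 5 fell in TAA livers. Gsta1 and Gstm3, glutathione transferases, rose by 7.64 ± 0.71 and 5.74 ± 0.36 on the log2 scale (limma adjusted p = 0.000104 and 2.06e-05). Cyp2c55 rose by 4.25 ± 0.34, Cyp2b10, a standard CAR target, by 3.94 ± 0.48 and Abcc4, an efflux transporter, by 2.74 ± 0.29. Slco1a4, an uptake transporter, fell by 2.70 ± 0.14. Gstm3 and Cyp2b10 were also higher in recovery than in control livers, by 2.38 ± 0.37 and 2.47 ± 0.43 (limma adjusted p = 0.0334 and 0.0439), and no other gene of the list was called there. Under quantile normalization Cyp2b10 (2.30) was not called in that comparison. Of the 14 redox partners and haem synthesis genes, 0 rose and 2 fell in TAA livers, Cyb5a by 1.12 ± 0.11 and Cpox by 1.37 ± 0.08. Por, the P450 reductase, was at -0.98 ± 0.08 (limma adjusted p = 7.77e-05), just under the fold threshold. Cyb5a turned to 0.17 under quantile normalization, and 0 of the 14 were called with either alternative scaling. In recovery against TAA livers Pgrmc2 rose by 1.06 ± 0.09 and Cpox by 1.53 ± 0.08, and Alas1, the first enzyme of haem synthesis, fell by 1.02 ± 0.13 in recovery against control livers (limma adjusted p = 0.0194). Pgrmc2 (0.50 deposited and 0.85 quantile) and Alas1 (-0.94 under each) were called under neither other scaling, and Cpox was not called as deposited (0.97). As deposited, 0 of the 14 were called higher and 1 lower in recovery against TAA livers.

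Because Cyp3a41a, Cyp3a41b and Cyp3a44 are known from female liver, genes with a sex bias in adult mouse liver were counted as well. Of 12 male-predominant genes, 11 fell and 0 rose in TAA livers, and their median was -4.73 on the log2 scale, and 12 rose in recovery against TAA livers. Mup7 fell by 10.87 ± 0.34, Elovl3 by 8.42 ± 0.16, Slco1a1 by 7.17 ± 0.15, Hsd3b5 by 6.56 ± 0.17, Cyp4a12b by 4.95 ± 0.18 and Cyp4a12a by 4.81 ± 0.29. In recovery against control livers Elovl3 was higher by 1.27 ± 0.21 and Hsd3b5 fell by 2.03 ± 0.32 (limma adjusted p = 0.0398 and 0.0345). Of 10 tested female-predominant genes, 5 rose and 3 fell, so the list moved in both directions, and under quantile normalization 3 were called higher and 4 lower. Cyp2a4 rose by 6.61 ± 0.21, Cyp2b9 by 4.64 ± 0.46 and A1bg by 1.52 ± 0.41, whereas Acot3 fell by 3.06 ± 0.10 and Cyp2c69 by 2.70 ± 0.49. A1bg was not called under quantile normalization (0.78). Hao2, which was called higher, was listed at 0 in all control livers and averaged 0.341 scaled FPKM in TAA livers. In recovery against TAA livers 3 of these 10 rose and 5 fell, and limma called 0 between recovery and control, with 3 at an unadjusted p under 0.05. Of 9 growth hormone signalling genes, which set the sex pattern of liver P450s, 3 fell and 0 rose in TAA livers, and these were Igfals (1.65 ± 0.37), Ghr (1.47 ± 0.11) and Igf1 (1.41 ± 0.11). With FPKM as deposited 2 of the 9 were called higher and 1 lower, and under quantile normalization 0 higher and 1 lower. Ghr and Igf1 rose in recovery against TAA livers, by 1.04 ± 0.09 and 1.37 ± 0.11. Neither was called with FPKM as deposited (0.48 for Ghr and 0.81 for Igf1) or under quantile normalization (0.48 and 0.74), where the counts were 0 higher and 1 lower, and 0 and 0. Limma called 0 of the 9 between recovery and control, with 4 at an unadjusted p under 0.05.

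Other genes known from early life were followed beside Cyp3a16. Of 7 tested, 4 rose and 0 fell in TAA livers, and 4 fell in recovery against TAA livers. Between recovery and control livers limma called 0 of the 7, with 1 at an unadjusted p under 0.05. Afp, the alpha-fetoprotein of fetal liver, was at 0.629, 0.535 and 0.393 scaled FPKM in control, 30.9, 52.0 and 38.1 in TAA and 0.334, 0.244 and 0.250 in recovery livers. It rose by 6.01 ± 0.22 (limma adjusted p = 2.97e-06) and then fell by 6.72 ± 0.20 (limma adjusted p = 1.51e-06). Gpc3, a fetal surface proteoglycan, rose by 4.86 ± 0.20 and Igf2bp3 by 1.29 ± 0.24, and Dlk1, listed at 0 in all control livers, was called higher at 0.292 ± 0.123 scaled FPKM (SD, n = 3) in TAA livers. Igf2bp3 was not called under quantile normalization (0.58). Of 11 genes of IL-6 and TNF signalling and the acute phase, which is known to lower P450 expression, 2 rose and 2 fell in TAA livers, against 5 higher and 1 lower with FPKM as deposited. Lcn2 and Orm2 rose by 2.70 ± 0.66 and 1.74 ± 0.48, and Saa1 and Il6ra fell by 2.52 ± 0.77 and 1.83 ± 0.13, Saa1 without a call under either other scaling (-1.89 and -1.87). In recovery against TAA livers 3 of the 11 rose, among them Il1b by 1.41 ± 0.27, and 3 fell, among them Cxcl1 by 2.19 ± 0.24. Limma called 0 of the 11 between recovery and control livers, with 4 at an unadjusted p under 0.05.

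**Figure D5:**
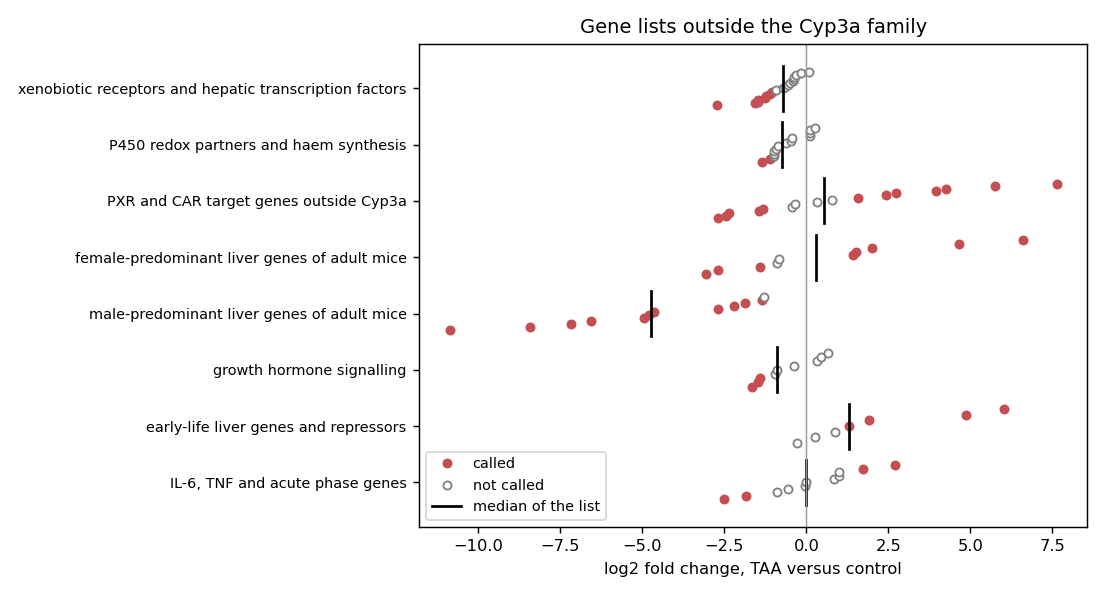
Log2 fold changes in TAA against control livers (horizontal axis) of the genes of 8 lists outside the Cyp3a family, each point 1 gene, filled where called, with a black line at the median of each list. The male-predominant genes had a median of -4.73 and the xenobiotic receptors and transcription factors one of -0.73, whereas PXR and CAR targets lay on both sides of 0. Of the 19 receptors and transcription factors, 7 changed direction under another scaling.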

How the data were processed

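The authors sequenced liver RNA of 9 mice, mapped the reads to mm10 with HISAT2 2.2.1, counted them on genes with featureCounts 1.5.0-p3 per the labels' processing notes, and deposited FPKM values without scaling between libraries. How reads that fit several copies were counted is not given in the sources used here. All 9 columns were mapped to mice by name. Scaling factors were medians of ratios over the 14005 genes above 0 in all libraries. Differences were fitted in R 4.3.3 with limma 3.58.1 (eBayes with trend) to log2(scaled FPKM + 0.1) in the 6 libraries of each comparison. The 14094 genes whose FPKM averaged 0.1 or more were fitted, with Benjamini-Hochberg adjustment over all of them. The labels do not state how the replicates of a group relate, so p values measure the spread between these mice.

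Depth was estimated from the steps of low FPKM values. Of these values 54.7% to 62.5% per library came out within 0.08 of a whole number of fragments, where 16.0% would by chance, so no count test was run. Fragment numbers are given for low members with 1 annotated transcript and for Cyp3a57. The exact binomial intervals of Cyp3a41a and Cyp3a41b used rounded fragments summed over the mice of a group. They leave out the spread between mice and are a description. Transcripts of GENCODE M21 and promoters of RefSeq (GRCm38.p6, 9 of 9 members matched) were aligned with Biopython 1.88. The members, the lists and the tests were chosen with earlier results of these data known. Named were all members, genes within the cluster, for each member that varied by over 1 log2 unit the 3 outside genes with the nearest profile, and from each list up to 6 called genes with the largest change, besides Nr1i2, Nr1i3, Por and Afp. The promoters shown were chosen after the values were seen. On simulated data 89.9% of 199 changed genes were recovered, with 6 false calls among 13400 genes. Few genes were changed there, in both directions, so the simulation did not test the scaling where many genes differ. Alternatives to the pseudocount, filter, scaling, samples in the fit, moderation, replicate block, threshold test and set of mice were tried.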

Additional observations from a re-analysis of the deposited data

How the results depend on the processing

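The 4 early-life members kept their direction and their calls in both comparisons with the TAA group under all 16 alternatives. Of these 4, 3 entered the main fits only through their TAA values, so the kept calls are a description and not a test. The limits below concern the other members and the counts over all genes. With FPKM as deposited, with quantile normalization and with a test against 2-fold (treat), the Cyp3a members called lower in TAA fell from 3 to 1 each time, as did those called higher in recovery against TAA. Cyp3a11 turned to 0.23 (deposited) and 1.03 (quantile) in TAA against control, and to -0.51 (quantile) in recovery against TAA. In recovery against control, Cyp3a13 turned to 0.0016 (deposited), and leaving out 1 mouse at a time moved it from -0.246 to 0.026 (positive without recovery mouse 3) and Cyp3a59 from -0.079 (without control mouse 2) to 0.191. The cause of these turns was not tested.

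In TAA against control (3520 genes called, 2389 higher and 1131 lower), a pseudocount of 1 gave 1780 (890 higher), a minimum mean FPKM of 1 gave 2204 (1176 higher), treat gave 1441 (941 higher and 500 lower), deposited FPKM gave 4382 higher and 421 lower, and quantile normalization 1583 higher. In recovery against TAA (3017, with 1003 higher and 2014 lower), these gave 1460 (711 lower), 1895 (975 lower) and 1084 (401 higher and 683 lower), with 409 higher and 3728 lower as deposited. In recovery against control (140, with 82 higher and 58 lower), a pseudocount of 1 gave 80 (40 higher), a fit of all 9 libraries 235 (151 higher), no trend 85 (49 higher and 36 lower) and treat 0, with 0 higher and 0 lower. Leaving out 1 mouse at a time gave 32 to 100 genes there (15 to 66 higher and 15 to 39 lower). With Cyp3a16 alone in place of the early-life set, the share of the summed FPKM was 0.0% in control, 0.369% in TAA and 0.0% in recovery livers.

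Same-numbered mice of different groups did not deviate together (correlations of deviations from -0.0705 to 0.125), so the numbers do not pair the mice. A replicate block gave 3517, 3026 and 17 genes (9 higher and 8 lower) in the 3 comparisons, and changed no call of a Cyp3a member.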
